A study of Mus musculus with 10 samples.

Results

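Genes of the integrated stress response, 10 of the 15075 in the expression table, were followed in brown fat of mice that lack Crls1 in adipocytes. They were taken by name: the 4 kinases that phosphorylate the translation factor eIF2 alpha (Eif2ak1, Eif2ak2, Eif2ak3 and Eif2ak4), the mitochondrial protease gene Oma1, the transcription factor genes Atf4 and Ddit3, the pseudokinase gene Trib3, and Ppp1r15a and Ppp1r15b, which encode the phosphatase subunits that reverse the phosphorylation. All 10 were in the table, and all 10 passed the filter on low values.

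Interscapular brown adipose tissue (iBAT) gave polyadenylated RNA for 10 libraries, 5 from Control and 5 from AdCKO mice, each library from a different mouse. Both groups were C57BL/6 mice aged 20 weeks, kept at room temperature, and homozygous for floxed Crls1, with loxP sites around exon 4. AdCKO mice also carried Adipoq-Cre, while Control mice carried no Cre and are called wild type in the sample labels. The adiponectin promoter drives Cre in white as well as brown adipocytes, so the other cells of the depot keep Crls1, the gene of cardiolipin synthase, which makes the signature phospholipid of the inner mitochondrial membrane.

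In the integrated stress response, 4 kinases converge on eIF2 alpha. HRI (Eif2ak1) answers to haem shortage and, through OMA1 and DELE1, to mitochondrial stress, PKR (Eif2ak2) to double-stranded RNA, PERK (Eif2ak3) to unfolded protein in the endoplasmic reticulum (ER), and GCN2 (Eif2ak4) to uncharged tRNA. Phosphorylated eIF2 alpha lowers general translation and favours translation of the Atf4 message, and ATF4 with its target CHOP-10 (Ddit3) raises Trib3, which restrains ATF4, and Ppp1r15a (GADD34), which brings a phosphatase to eIF2 alpha. Ppp1r15b (CReP) does the same without stress, and much of this control acts on proteins, which RNA levels do not show.

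In AdCKO iBAT, Trib3 rose 10.4-fold, Ddit3 6.60-fold, Ppp1r15a 5.60-fold and Atf4 2.32-fold, each with every AdCKO library above every Control library. Eif2ak1, Eif2ak4 and Oma1 fell to between 68.6% and 73.9% of their Control means, and Eif2ak2, Eif2ak3 and Ppp1r15b did not pass the test. Thus 4 of the 10 genes were called higher and 3 lower by limma at an adjusted p under 0.01, where 25.6% of the 11244 tested genes were called higher, 28.0% lower and 53.6% in either direction. The ranges of the groups did not overlap for 4 genes that were higher and 3 that were lower, against 24.5% and 26.4% of tested genes, or 50.9% in all. A gene being called was thus common in these libraries, and the sizes of the changes are given gene by gene.

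Levels are given per kb of counted exon, as normalized reads, and fold changes from the test are on the log2(value + 1) scale. Crls1 averaged 1060 ± 191 (SD, n = 5) in Control and 217 ± 26.4 in AdCKO (log2 fold change −2.27, SE 0.13, adjusted p = 3.53e-08), which is 20.5% of Control in whole tissue. Control libraries summed to between 7615403 and 8171138 normalized reads, and AdCKO libraries to between 5419800 and 5843024. All 8 listed adipocyte markers were present, with summed levels of 212978 to 241876 in Control and 132360 to 157453 in AdCKO, and 6 of the 8 were lower. Of these, Adipoq, Fabp4, Plin1, Pparg and Lipe are general adipocyte genes rather than brown ones. Fabp4, the largest of the 8, had 147241 in Control and 108235 in AdCKO and was not called (adjusted p = 0.0205 by limma). Ucp1 and Cidea fell (log2 fold change −1.42 and −1.63), while Dio2 rose in the mean, from 161.5 to 284.6, without a call (adjusted p = 0.0145). Macrophage markers were higher for 10 of 10 genes, with sums of 654 to 2115 against 8051 to 10868. One of them, Itgam, at 5.93 in Control, passed the filter only through its AdCKO mean. Fibroblast markers were higher for 5 of 5, with sums of 830 to 1096 against 3607 to 5056. Endothelial sums overlapped (1241 to 1584 and 1257 to 1741), and 1 of 5 genes was higher. Lymphocyte sums were at most 71.5 apart from 247 in AdCKO 1, and 1 of 5 tested genes was higher. These 5 lymphocyte genes passed the filter only through their AdCKO means. Skeletal muscle markers summed to 441 to 481 in Control, to 268 and 275 in AdCKO 3 and 5, and to 5908, 21541 and 8325 in AdCKO 1, 2 and 4. No marker was at 0, and their part in the results was not tested. In bulk tissue, fewer cells of a type cannot be told apart from less RNA per cell.

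**Figure D1:**
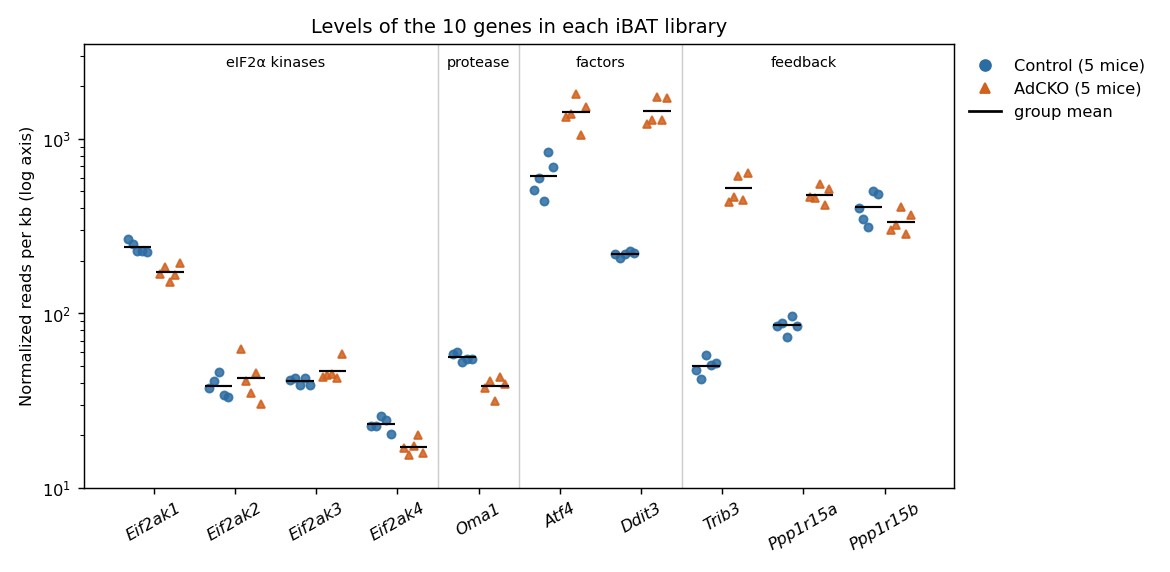
Normalized reads per kb of the 10 genes in each of the 5 Control and 5 AdCKO libraries, on a log axis, with points for libraries and bars for group means. Atf4, Ddit3, Trib3 and Ppp1r15a lie higher in every AdCKO library, Eif2ak1, Eif2ak4 and Oma1 lie lower, and the other 3 genes overlap.

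Eif2ak1 was the most abundant of the 4 kinase genes in both groups. This gene (NM_013557, chr5:144578661-144663586 of mm9, plus strand) had 266, 249.9, 229, 229 and 225 normalized reads per kb in Control 1 to 5, and 169, 184, 151, 166 and 193 in AdCKO 1 to 5. Every AdCKO library was below every Control library. The mean fell from 239.7 ± 17.8 to 172.8 ± 16.3 (log2 fold change −0.47, SE 0.08, adjusted p = 0.000211), or to 72.1% of Control. Eif2ak1 shares 14 bases at one end with Aimp2 and, within its span, 4325 bases with Ankrd61, both on the opposite strand. These are lengths of gene spans, introns included. Reads in shared bases cannot be told apart without strand. Aimp2, a scaffold of the tRNA synthetase complex, moved the other way (91.4 to 122.6, log2 fold change 0.42, adjusted p = 0.00665), and Ankrd61 was near the bottom of the table (1.46 and 1.35).

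Eif2ak4 showed a drop of similar size from a lower level. The libraries of Eif2ak4 (NM_013719, chr2:118214353-118300970, plus strand) held 22.7, 22.7, 25.9, 24.6 and 20.3 in Control and 16.9, 15.5, 17.4, 20.2 and 15.9 in AdCKO. The groups did not overlap, but the lowest Control library and the highest AdCKO library almost met. The means were 23.3 ± 2.13 and 17.2 ± 1.84 (log2 fold change −0.42, SE 0.10, adjusted p = 0.00216). Without AdCKO 1, 2 and 4, the libraries with high muscle markers, the log2 fold change was −0.45 and its adjusted p of 0.0122 missed the threshold, in a comparison chosen after seeing the data where 38.1% of tested genes were called, 18.7% higher and 19.3% lower.

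Eif2ak3, the ER kinase, did not pass the test. In Eif2ak3 (NM_010121, chr6:70794521-70855234, plus strand) the Control libraries held 41.7, 42.9, 38.8, 42.9 and 38.9, and the AdCKO libraries 43.3, 44.2, 45.2, 42.7 and 58.6. AdCKO 5 stood well above the rest, AdCKO 1, 2 and 3 lay a little above the Control range, and AdCKO 4 lay within it. AdCKO was above Control in 23 of 25 pairs of libraries. The log2 fold change was 0.18 (SE 0.09, 95% interval −0.02 to 0.37, adjusted p = 0.107 by limma), and permuting the libraries over the groups (exact, two-sided) gave p = 0.024 without adjustment. Without AdCKO 5 the log2 fold change was 0.09, and its adjusted p was 0.251.

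Eif2ak2 varied most among AdCKO mice, with a highest library 2.05 times its lowest. Eif2ak2 (NM_011163, chr17:79251890-79281912, minus strand) had 37.4, 41.2, 46.2, 33.9 and 33.3 in Control and 62.4, 40.8, 35.2, 45.5 and 30.4 in AdCKO. The groups overlapped over most of their range, and AdCKO held both the highest and the lowest library of the 10. The log2 fold change was 0.12 (SE 0.17, 95% interval −0.24 to 0.49, adjusted p = 0.535), and leaving out AdCKO 1 took it to −0.02.

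PKR is itself the product of an interferon-stimulated gene, and the interferon-stimulated genes did rise. Of the 18 listed genes, 17 were called higher, against 25.6% of all tested genes. Ifi44, Oas1a, Mx1 and Mx2, called higher too, had Control means between 4.52 and 9.72 and passed the filter only through AdCKO. The median log2 fold change of the 18 was 2.18, where the median over all tested genes was −0.01. Oasl2 went from 18.6 ± 5.01 to 169 ± 93.1 (log2 fold change 2.96, adjusted p = 9.96e-06), Oas2, a sensor of double-stranded RNA, from 14.8 to 101.6 (2.62, adjusted p = 2.08e-06), and Isg15, a ubiquitin-like modifier, from 41.4 to 299.7 (2.67, adjusted p = 2.49e-05). Under quantile normalization 14 of the 18 were called higher, against 22.5% of all tested genes. The summed level of the 18 genes was 4869.6, 1839.6, 2493, 2901 and 1046 in AdCKO 1 to 5, and in Control it ran from 546 to 1030. Within AdCKO, library 1 was highest, library 4 second and library 5 lowest for both this sum and Eif2ak2, and Control 3 was the highest Control library for both. AdCKO 2 and 3 changed places between the sum and Eif2ak2, as did Control 4 and 5. The sum of AdCKO 5 was above that of every Control library, while its Eif2ak2 was below that of every Control library.

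A stretch of the Eif2ak2 promoter region is shown because it holds the letters of an interferon-stimulated response element (GAAA, any 2 bases and GAAA again), in capitals. The bases are from RefSeq on GRCm38.p6, chr17:78882535-78882564, minus strand, written 5′ to 3′, and the match begins 19 bases from the annotated start.
Eif2ak2: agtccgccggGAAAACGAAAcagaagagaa
Read on both strands, these letters occurred in 3.44% of the 32851 promoter windows searched, each running from 250 bases before to 50 after a start. Windows were found for 9 of the 10 genes, and among them Ppp1r15a also held the letters, 220 bases before its start. A match of letters describes the sequence and is not a binding site.

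Taken as shares of the summed kinase signal, which do not depend on a library's scaling factor, Eif2ak1 was lower and Eif2ak3 higher in AdCKO. The sum itself does depend on it: it was 342.4 ± 20.2 in Control and 279.7 ± 19.2 in AdCKO (exact permutation p = 0.0079, the smallest that 5 against 5 allows), but with equal library totals it was higher in AdCKO, at 293.9 ± 17.1 and 335.0 ± 18.6 (exact p = 0.016). Eif2ak1 made up 72.3%, 70.1%, 67.3%, 69.3% and 70.9% of it in Control and 58.0%, 64.6%, 60.7%, 60.5% and 64.8% in AdCKO. Its share thus fell by 8.22 percentage points in the mean, with no overlap (exact p = 0.0079, adjusted over the 7 shares and ratios compared p = 0.011). The share of Eif2ak3 was 11.3%, 12.04%, 11.4%, 13.0% and 12.2% in Control and 14.8%, 15.6%, 18.1%, 15.5% and 19.6% in AdCKO. Every AdCKO share was above every Control share, a rise of 4.73 points (exact p = 0.0079, adjusted p = 0.011). The share of Eif2ak2 also rose in the mean, by 4.11 points (11.2% ± 1.45 and 15.3% ± 4.09), but did not pass the exact test (p = 0.056). Nor did the share of Eif2ak4 (6.81% ± 0.69 and 6.18% ± 0.92, exact p = 0.25). A larger share is a statement about proportions: Eif2ak3 itself was not called higher.

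**Figure D2:**
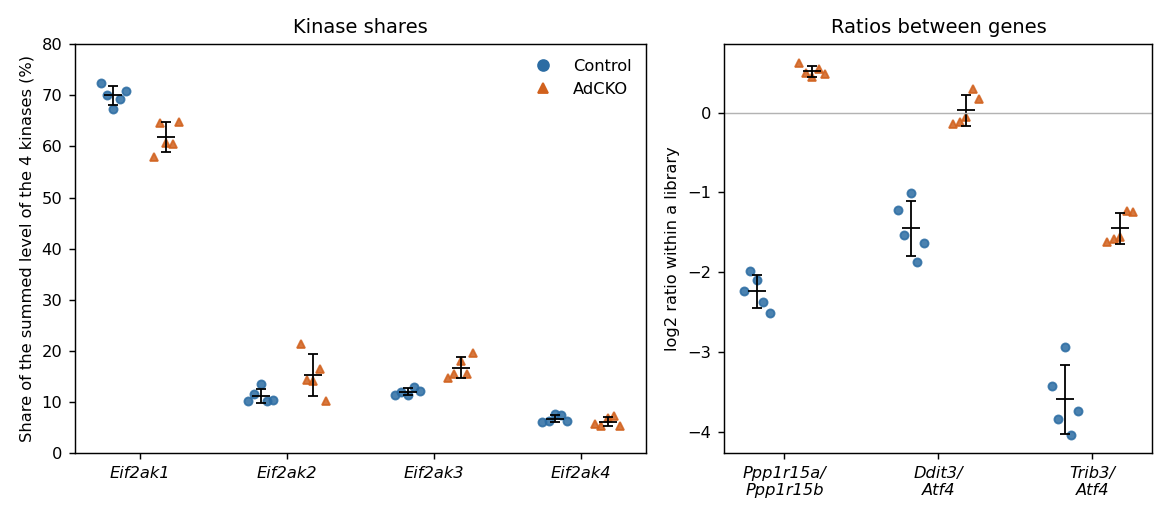
Shares of the 4 kinase genes in their summed level (percent) and log2 ratios between pairs of response genes, for each Control and AdCKO library, with crosses and bars for means and SD. The Eif2ak1 share is lower and the Eif2ak3 share higher in every AdCKO library, and all 3 ratios are higher in every AdCKO library.

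OMA1 cleaves DELE1 and OPA1 at the inner mitochondrial membrane when mitochondria are stressed. Oma1 (NM_025909, chr4:102986451-103039033, plus strand) had 58.7, 59.9, 52.7, 55.0 and 54.5 normalized reads per kb in Control and 37.4, 41.0, 31.6, 43.5 and 39.3 in AdCKO. A clear gap separated the groups. The mean fell from 56.2 ± 3.04 to 38.5 ± 4.48 (log2 fold change −0.54, SE 0.09, adjusted p = 0.000161), or to 68.6% of Control.

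Its substrates were lower as well under the deposited scaling. Dele1, which carries the signal from OMA1 to HRI and is listed in the table under its older symbol 0610009O20Rik, went from 243.6 ± 18.7 to 166.8 ± 13.8 (log2 fold change −0.54, adjusted p = 4.51e-05). Opa1, the fusion GTPase of the inner membrane, went from 370 ± 21.9 to 179.5 ± 15.3 (−1.04, adjusted p = 1.77e-07). In the list of 13 genes of the OMA1 relay and inner membrane quality control, 8 were lower, 1 was higher and 4 were not called. Their median log2 fold change was −0.52, and 28.0% of all tested genes were called lower and 25.6% higher. With equal totals 5 of the 13 were lower and 5 higher, where 9.77% of all tested genes were called lower and 60.6% higher. Dele1 was then not called (−0.07, adjusted p = 0.364) and Opa1 was still lower (−0.56, adjusted p = 1.59e-05). Spg7, a subunit of the matrix AAA protease, fell from 441 to 201 (−1.13, adjusted p = 3.69e-07), and Stoml2, a membrane scaffold protein, fell from 392 to 237 (−0.72, adjusted p = 2.16e-06). The gene that rose was Lonp1, the main matrix protease, from 858 to 1246 (0.53, adjusted p = 0.000378). The listed adipocyte markers, also on the whole lower in AdCKO, moved with this list, and their part in it was not tested.

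Scaling changed the calls of the genes that fell and those of Eif2ak2 and Eif2ak3. When every library was set to the same total, the median log2 fold change of all tested genes moved from −0.01 to 0.46, and 70.3% of tested genes were called, 60.6% higher and 9.77% lower. Under that scaling Eif2ak1 stood at 0.01, Eif2ak4 at 0.04 and Oma1 at −0.07, and none of these was called. Relative to the all-gene median they remained 0.45, 0.42 and 0.53 below it on the log2 scale. Eif2ak2 (0.59, adjusted p = 0.00812) and Eif2ak3 (0.65, adjusted p = 2.06e-05) were then called higher, at 0.13 and 0.19 above that median. Of the 10 genes, 6 were then called higher and 0 lower. Quantile normalization gave 4 higher and 3 lower, where 22.5% and 31.1% of tested genes were called, with Eif2ak1 at −0.38, Eif2ak4 at −0.73 and Oma1 at −0.68.

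**Figure D3:**
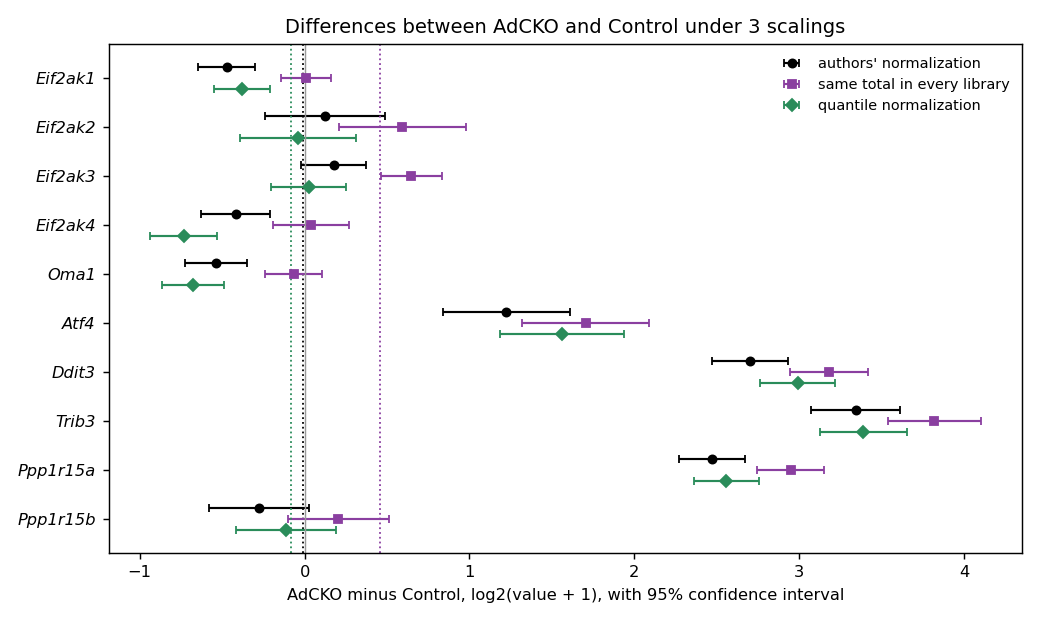
Log2 fold changes (AdCKO minus Control) of the 10 genes with 95% intervals under the deposited scaling, under equal library totals and under quantile normalization, with dotted lines at the median of all tested genes under each. The 4 response genes stay above 1 under each scaling, while Eif2ak1, Eif2ak4 and Oma1 lie near 0 once totals are set equal.

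Atf4 had the highest mean level of the 10 genes in Control, and it rose. Atf4 (NM_009716, chr15:80085614-80087975, plus strand) had 510.0, 599, 440.1, 837 and 688 normalized reads per kb in Control and 1343, 1396, 1811, 1049 and 1519 in AdCKO. Control mice spread widely, with a highest library 1.90 times the lowest, yet none reached the lowest AdCKO library. The mean rose from 615 ± 155 to 1423 ± 277, or 2.32-fold (log2 fold change 1.22, SE 0.18, 95% interval 0.84 to 1.61, adjusted p = 6.3e-05).

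Ddit3, which encodes CHOP-10, was even across Control mice and changed more. Ddit3 (NM_001290183, chr10:126727849-126733344, plus strand) had 219, 207, 219.8, 229 and 222 in Control and 1214, 1283, 1743, 1289 and 1710.3 in AdCKO. AdCKO 3 and 5 stood above the other AdCKO libraries, and the coefficient of variation was 3.63% in Control and 17.7% in AdCKO. The mean rose from 219 ± 7.97 to 1448 ± 256, or 6.60-fold (log2 fold change 2.70, SE 0.11, adjusted p = 3.13e-09). At one end the gene overlaps Mars, the methionyl-tRNA synthetase gene, on the opposite strand over 68 bases. Mars moved the other way, from 167 ± 12.8 to 89.6 ± 5.92 (log2 fold change −0.89, adjusted p = 6.15e-07).

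Trib3 had the largest change of the 10. Trib3 (NM_175093, chr2:152163161-152169796, minus strand) had 47.5, 41.9, 57.7, 50.9 and 51.7 in Control and 435, 466, 612, 447 and 641 in AdCKO. The lowest AdCKO library was far above the highest Control library. The mean rose from 49.9 ± 5.81 to 520.1 ± 98.3, or 10.4-fold (log2 fold change 3.34, SE 0.12, adjusted p = 2.09e-09), and by mean level the gene went from percentile 56.2 of all genes in Control to percentile 94.3 in AdCKO.

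Ppp1r15a, the stress-induced phosphatase subunit, rose with less spread among AdCKO mice. Ppp1r15a (NM_008654, chr7:52778288-52781638, minus strand) had 85.1, 88.4, 73.3, 97.2 and 84.8 in Control and 464, 456, 551.5, 416 and 514 in AdCKO. No Control library came near the AdCKO range. The mean rose from 85.8 ± 8.57 to 480.3 ± 53.0, or 5.60-fold (log2 fold change 2.47, SE 0.09, adjusted p = 2.09e-09).

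Its constitutive partner did not follow. Ppp1r15b (NM_133819, chr1:135027743-135036377, plus strand) had 399.9, 349.9, 314, 502 and 483 in Control and 300.2, 322, 406, 285 and 366 in AdCKO. The ranges overlapped, with the 2 highest libraries in Control. The log2 fold change was −0.27 (SE 0.14, 95% interval −0.58 to 0.03, adjusted p = 0.101), and an exact permutation test gave p = 0.14. Under the same total it was 0.21, which was not called either (adjusted p = 0.197).

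The 100 bases before the annotated start are shown for the 4 genes that rose, as RefSeq gives them on GRCm38.p6, 5′ to 3′ on the strand of the gene. Capitals mark TGACGTCA, the letters of a cyclic AMP response element, which ATF and CREB proteins are known to bind. The windows are chr15:80255084-80255183 (Atf4, plus), chr10:127290693-127290792 (Ddit3, plus), chr2:152344061-152344160 (Trib3, minus) and chr7:45526269-45526368 (Ppp1r15a, minus).
Atf4: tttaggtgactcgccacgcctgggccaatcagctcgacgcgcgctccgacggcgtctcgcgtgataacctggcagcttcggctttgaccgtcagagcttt
Ddit3: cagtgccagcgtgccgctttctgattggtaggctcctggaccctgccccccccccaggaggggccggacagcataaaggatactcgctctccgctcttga
Trib3: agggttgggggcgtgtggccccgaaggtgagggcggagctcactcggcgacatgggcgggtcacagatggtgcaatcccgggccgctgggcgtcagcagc
Ppp1r15a: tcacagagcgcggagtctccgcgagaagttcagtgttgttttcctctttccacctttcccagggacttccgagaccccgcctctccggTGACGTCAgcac

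In Ppp1r15a these letters begin 12 bases before the start, and they occurred in 1.79% of all windows. The composite element of C/EBP and ATF proteins, TGATGNAA, through which ATF4 is known to act with a C/EBP partner, was searched on both strands and occurred in 3.97% of all windows. Of the 9 genes with a window, Trib3 alone held it, on the opposite strand from base 15 after the start, in chr2:152344029-152344056, where capitals mark the match.
Trib3: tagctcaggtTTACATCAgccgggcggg
The ER stress response element (CCAAT, any 9 bases and CCACG), searched likewise, was in 0.119% of windows and in none of these genes' windows. No match says only that the letters are not in that window.

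Levels per kb changed their order between groups. In Control the order of means was Atf4, Ppp1r15b, Eif2ak1, Ddit3, Ppp1r15a, Oma1, Trib3, Eif2ak3, Eif2ak2 and Eif2ak4. Among neighbours in that order, Atf4 and Ppp1r15b, Eif2ak1 and Ddit3, Oma1 and Trib3, Trib3 and Eif2ak3, and Eif2ak3 and Eif2ak2 had overlapping ranges. In AdCKO the order was Ddit3, Atf4, Trib3, Ppp1r15a, Ppp1r15b, Eif2ak1, Eif2ak3, Eif2ak2, Oma1 and Eif2ak4. There the ranges overlapped between Ddit3 and Atf4, between Trib3 and Ppp1r15a, and along Eif2ak3, Eif2ak2 and Oma1.

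Ratios within a library compare the response genes with each other, free of library scaling. The log2 ratio of Ppp1r15a to Ppp1r15b was −2.23, −1.98, −2.10, −2.37 and −2.51 in Control and 0.63, 0.50, 0.44, 0.54 and 0.49 in AdCKO. The inducible subunit was thus the lower of the pair in every Control library and the higher in every AdCKO library. The mean ratio moved by 2.76, from −2.24 ± 0.21 to 0.52 ± 0.07 (exact permutation p = 0.0079, adjusted p = 0.011). The log2 ratio of Ddit3 to Atf4 was −1.22, −1.53, −1.001, −1.87 and −1.63 in Control and −0.15, −0.12, −0.06, 0.30 and 0.17 in AdCKO. Ddit3 therefore gained on Atf4 in every AdCKO library, by 1.48 in the mean (exact p = 0.0079, adjusted p = 0.011). Trib3 gained more on Atf4, from a log2 ratio of −3.59 ± 0.43 to −1.45 ± 0.20, a difference of 2.14 with the same p-values.

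Within the AdCKO group, libraries 3 and 5 held the 2 highest values of Atf4, Ddit3, Trib3, Ppp1r15a and Ppp1r15b, and these are the libraries without high muscle markers. The order of the other 3 libraries differed from gene to gene. The part of muscle RNA was not tested, and with AdCKO 3 and 5 as the only AdCKO libraries the log2 fold changes were 1.47 for Atf4, 2.97 for Ddit3, 3.63 for Trib3 and 2.63 for Ppp1r15a. In Control, library 4 was highest for Atf4, Ddit3, Ppp1r15a and Ppp1r15b.

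The 5 genes most like Atf4 in profile, among 11243 others and over the 10 libraries, were Col4a2, Col4a1, Irf2bp2, Hk1 and Sema3f. Their root mean square differences from Atf4 in log2 change from the Control mean ran from 0.15 to 0.18. Those most like Ddit3 were Ero1l (0.14), Ppp1r15a (0.21), Ucp2 (0.21), Stbd1 (0.24) and Slc7a8 (0.26). One of the 10 genes, Ppp1r15a, was thus the second closest to Ddit3, while Trib3 was at 0.46 and Atf4 at 1.10. The measure includes the size of the change, so genes with a log2 fold change near that of the reference come out closest. Log2 fold changes were 2.70 for Ddit3, 2.74 for Ero1l, 2.47 for Ppp1r15a, 3.34 for Trib3 and 1.22 for Atf4. A larger difference therefore does not mean that the libraries of a gene ranked otherwise. Ucp2 went from 279 ± 51.1 to 1950.1 ± 209 and Col4a2 from 434 ± 76.8 to 999 ± 55.7.

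**Figure D4:**
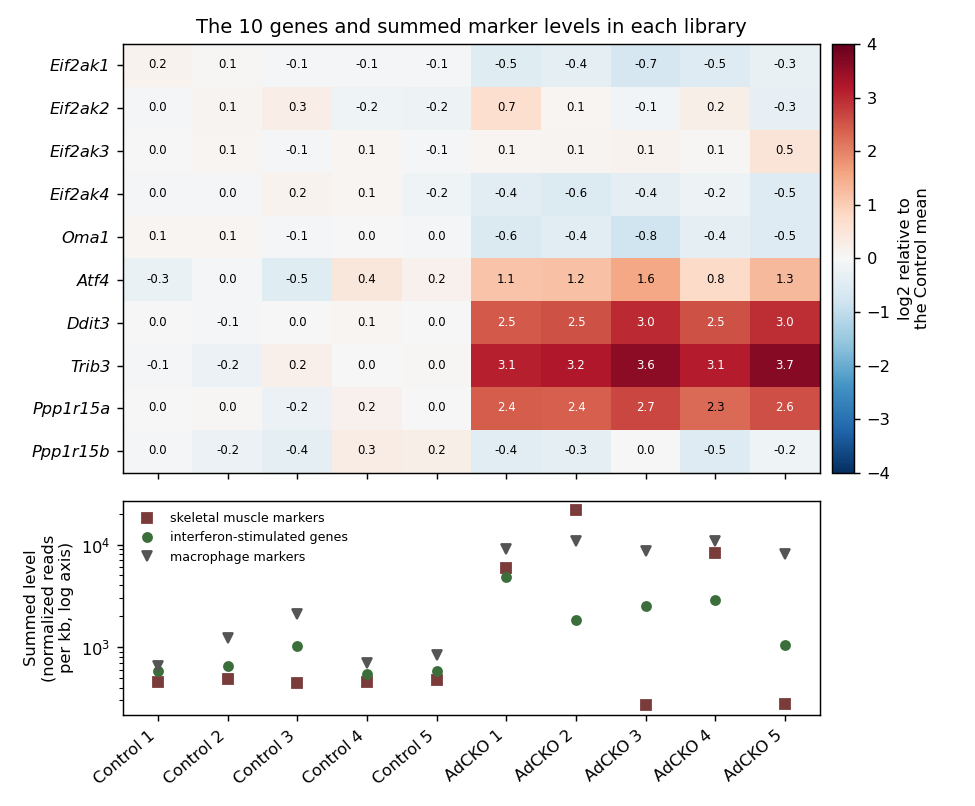
Log2 change of each of the 10 genes from its Control mean in every library, above the summed levels of marker lists on a log axis. AdCKO 1, 2 and 4 have high skeletal muscle sums, and AdCKO 1 has both the highest interferon-stimulated sum and the highest Eif2ak2.

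Of 8 subunits of eIF2 and its exchange factor eIF2B, 1 was higher, 2 were lower and 5 were not called, with a median log2 fold change of −0.02, and neither share is above the 25.6% and 28.0% of all tested genes. Eif2s2, the beta subunit of eIF2, rose from 233.6 ± 8.64 to 304.9 ± 16.7 (0.38, adjusted p = 0.000121). Eif2b5 (−0.29, adjusted p = 0.00138) and Eif2b1 (−0.28, adjusted p = 0.00229), of the exchange factor, fell under the deposited scaling. With equal totals Eif2b1 was instead called higher (0.20, adjusted p = 0.00834) and Eif2b5 stood at 0.19 without a call (adjusted p = 0.0114). In all, 6 of these 8 genes were then called higher and 0 lower, where 60.6% of all tested genes were called higher.

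Among 11 regulators of the phosphatase and the kinases, Ppp1r15a and Ppp1r15b included, 2 were higher, 2 were lower and 7 were not called (median −0.11), which is again not above the shares of all tested genes. With equal totals 7 were higher and 0 lower, against 60.6% and 9.77% of all tested genes, and the count lower was 1 without Control 2, Control 3, AdCKO 2, AdCKO 3 or AdCKO 5, each left out in turn, and 1 with a replicate block. Besides Ppp1r15a, the gene that rose was Impact, which competes for the activator of GCN2, from 63.8 ± 8.37 to 121.5 ± 22.1 (0.91, adjusted p = 5.24e-05). Gcn1l1, that activator, stood at 50.6 ± 1.80 and 44.7 ± 2.19 and was not called (−0.18, adjusted p = 0.0252). Ppp1ca, a catalytic subunit of the phosphatase, fell from 1773 to 1124 (−0.66, adjusted p = 3.83e-05), and Prkra, which binds PKR, fell from 117 to 93.0 (−0.33, adjusted p = 0.00469). Neither fall was called with equal totals (adjusted p = 0.0658 and 0.123), where Prkra stood at 0.15. Dnajc3, an inhibitor of PERK and PKR, had 126.6 in Control and 128.6 in AdCKO (0.02, adjusted p = 0.797).

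Downstream, 4 of 8 genes in the list of transcription factors and cofactors were higher and 0 lower (median 0.57), where 25.6% of all tested genes were higher. The 8 include Ddit4, which does not encode a transcription factor and was not called (0.28, adjusted p = 0.0203). With equal totals 7 were higher, Ddit4 among them, and 0 lower, where 60.6% of all tested genes were higher. Atf3, a repressor and activator induced by ATF4, rose from 15.9 ± 2.81 to 311.5 ± 57.9 (4.21, adjusted p = 1.1e-09). Jun rose from 99.1 to 288.8 (1.55, adjusted p = 1.78e-06), and Atf5, linked to the mitochondrial unfolded protein response, from 1263 to 2455 (0.98, adjusted p = 0.000296). Nupr1 was the other called gene, and Cebpb, at 1745 ± 944 and 1095 ± 285, was not called (−0.54, adjusted p = 0.161).

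Targets of ATF4 and CHOP-10 were mostly higher. Of 27 listed genes 25 were tested, of which 18 were higher, 3 lower and 4 not called, with a median log2 fold change of 1.55. Slc7a5, Slc7a1, Aldh18a1 and Bcl2l11, all called higher, had Control means between 3.66 and 8.67 and passed the filter only through AdCKO. Over all tested genes 25.6% were called higher and 28.0% lower. With equal totals 22 of the 25 were higher and 2 lower, where 60.6% and 9.77% of all tested genes were. Ero1l, the ER oxidase known as a CHOP-10 target, rose from 52.7 ± 2.69 to 357.6 ± 23.1 (2.74, adjusted p = 1.25e-10). Psat1, of serine synthesis, went from 24.0 ± 2.79 to 349.8 ± 56.5 (3.80, adjusted p = 5.74e-10) and Slc7a5, a transporter of large neutral amino acids, from 3.66 to 39.6 (3.12, adjusted p = 4.38e-10). Against the list, Vldlr, a lipoprotein receptor, fell from 196 to 109.9 (−0.83, adjusted p = 6.75e-06). Eif4ebp1, a repressor of cap-dependent translation, fell from 2330 ± 417 to 1273 ± 128 (−0.86, adjusted p = 5.28e-05), and Herpud1, of ER-associated degradation, fell from 464 to 331 (−0.49, adjusted p = 0.000247). With equal totals Vldlr (−0.35) and Eif4ebp1 (−0.38) were still called lower, and Herpud1 stood at −0.01 and was not. Asns, asparagine synthetase, was not called (341 to 387, 0.18, adjusted p = 0.0372).

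The IRE1 and ATF6 arms of the ER response, which do not run through eIF2 alpha, had 13 of 16 genes higher and 0 lower. Their median was 0.68, and 25.6% of all tested genes were called higher and 28.0% lower. With equal totals all 16 were higher, where 60.6% of all tested genes were higher. Hspa5, the chaperone BiP, rose from 917 ± 51.9 to 1756 ± 147 (0.93, adjusted p = 5.48e-07), Hsp90b1 from 536 to 1018 (0.93, adjusted p = 5.88e-07) and Sdf2l1 from 17.8 to 51.6 (1.48, adjusted p = 4.02e-07). Pdia6, Dnajb11 and Hyou1 were not called. With AdCKO 3 and 5 as the only AdCKO libraries, a choice made after seeing the data, 10 of these 16 genes were higher. So were 17 of the 25 targets and 12 of the 18 interferon-stimulated genes, against 18.7% of all tested genes. In the OMA1 list 6 of the 13 genes were lower, against 19.3% of all tested genes.

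**Figure D5:**
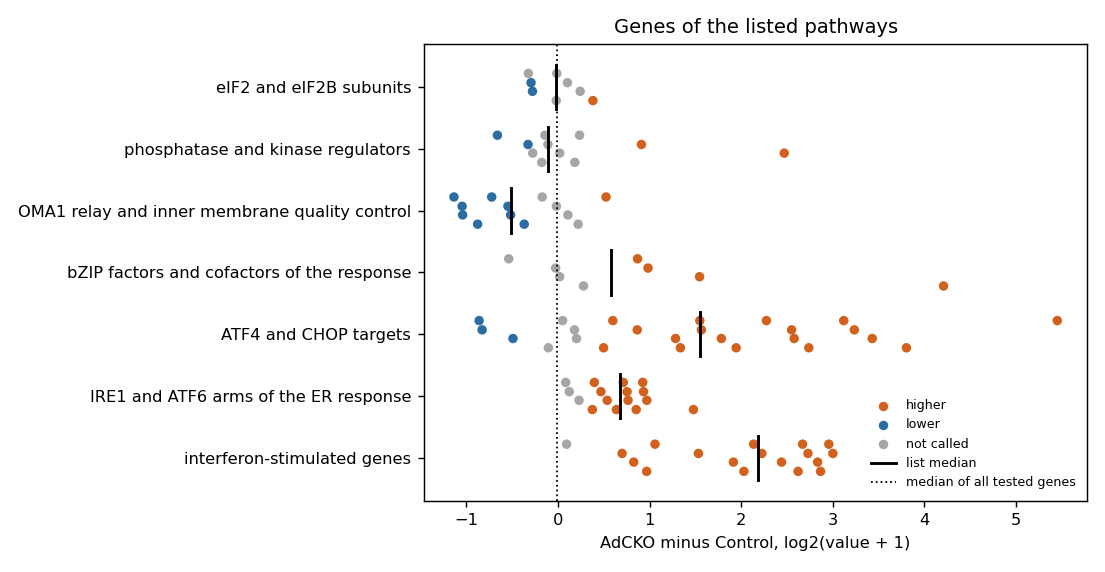
Log2 fold changes (AdCKO minus Control) of every tested gene in the 7 pathway lists, coloured by call, with the median of each list as a bar and a dotted line at the median of all tested genes. The target, interferon and ER lists lie mostly above 0, and the list of the OMA1 relay lies mostly below.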

How the data were processed

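Per the labels and the study's methods, polyadenylated RNA was made into TruSeq libraries. Each value deposited by the authors is a signal: exon reads from iRNA-seq, scaled in DESeq2 by the authors and divided by the kb of exon counted. Behind them lie STAR alignments on mm9, held as HOMER tag directories. Whole reads could not be recovered, the step that moderates the values is not named in the sources used here, and depth before normalization is unknown, so precision is given as the spread between mice. Strand of the counting was not stated. Deposited columns of the authors' own comparison (fold changes and adjusted p-values) were not used.

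After adding a pseudocount of 1 and taking log2, the 11244 genes with a group mean of at least 10 were fitted in limma (version 3.58.1, R 4.3.3) using lmFit and eBayes, two-sided, the prior variance following expression level. Benjamini-Hochberg adjusted p-values were held against 0.01. A fit to simulated data was used to check the code. Shares, ratios and single values were compared by exact two-sided permutation in SciPy 1.17.1, against 0.05. Folds on the log2(value + 1) scale are understated for low genes. Nothing in the labels says more about replicates than that they are different mice.

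The 10 genes and the gene lists were chosen with earlier results of these data known. Genes named in the text were the 10 genes, Crls1, for each pathway list the 3 called genes with the smallest p in each direction, partners in the relay (Dele1, Opa1, Dnajc3, Gcn1l1 and Impact), genes overlapping the 10, and the 5 genes closest in profile to Atf4 and to Ddit3. Other uncalled list genes, Nupr1, single marker genes and genes named for passing the filter only through AdCKO were chosen after their values were seen.

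Alternatives changed the pseudocount (to 0.1 or 10), the filter (to none, or to a mean of 1 across samples), the scaling (equal library totals, or quantile normalization), the limma fit (no trend, array quality weights, replicate block), the threshold (0.05) and the libraries, each of which was left out in turn. Leaving out AdCKO 1, 2 and 4 together was added after seeing the data. Promoter windows came from RefSeq on GRCm38.p6, and gene coordinates are those of the deposited table on mm9.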

Additional observations from a re-analysis of the deposited data

Results flagged for a closer look

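Eif2ak3 in AdCKO 5 stood apart from the other AdCKO libraries. Its value was 58.6 normalized reads per kb, where the other 4 lay between 42.7 and 45.2, and its gap to the nearest of them was 0.841 of the range of the group. Of 34 groups of 5 libraries examined in this way, 1 stood out, and chance alone gives about 1 in 20. Without this library the log2 fold change of Eif2ak3 was 0.09 (adjusted p = 0.251 by limma).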

How the results depend on the processing

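Leaving aside counts of single lists, 372 of 392 recomputed values kept their direction and their side of the threshold, or a count within 1.5 times. Of 294 recomputed counts of single lists, 19 moved by more, 8 of them the count lower among regulators of the phosphatase and the kinases and 4 the count higher among eIF2 and eIF2B subunits. Atf4, Ddit3, Trib3, Ppp1r15a and Crls1 kept direction and call in all of theirs. Setting the same total in every library moved the most: 6811 genes were called higher (60.6%) and 1098 lower (9.77%). Pathway list genes called lower then numbered 7, from 15 under the deposited scaling, where 28.0% of all tested genes were lower. Eif2ak1 went to 0.0075, Eif2ak4 to 0.041, Oma1 to −0.067 and Ppp1r15b to 0.21 without a call. Eif2ak2 (0.59) and Eif2ak3 (0.65) gained a call. Eif2ak2 was −0.041 under quantile normalization, and between −0.020 (without AdCKO 1) and 0.23 when libraries were left out in turn. Without AdCKO 1, 2 and 4 together, which leaves 2 AdCKO libraries, Eif2ak2 was −0.21 and Eif2ak4 lost its call at −0.45. Pathway list genes called lower then numbered 9, where 19.3% of all tested genes were lower. The difference in the Eif2ak2 share ran from 2.60 to 5.40 points when libraries were left out, and at 5.40 (without AdCKO 5, exact p = 0.016) it passed the threshold. The cause was not tested.

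The labels do not say whether replicate numbers pair the mice. Correlations of same-numbered libraries ran from −0.27 to 0.10, and no Control library correlated best with its own number. Low correlations cannot exclude a pairing. With a replicate block limma called 2592 genes higher and 2838 lower. Paired exact sign-flip tests cannot go below p = 0.0625 with 5 pairs, so the differences of −8.22 and 4.73 points in the Eif2ak1 and Eif2ak3 shares and of 2.76, 1.48 and 2.14 in the ratios could not pass under the replicate block. Depth before normalization is unknown, so low genes cannot be given a counting error.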
